A study of Homo sapiens with 32 samples.

Results

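The integrated stress response and the unfolded protein response were followed here through 38 genes of the 60332 genes in the deposited tables, in 32 RNA-seq libraries from irradiated and unirradiated human epithelial cells. The genes were taken by symbol from a list of known response genes that was drawn up with earlier results of these data known, and each symbol was found in the tables. They fall into an ATF4 amino acid arm of 22 genes and an endoplasmic reticulum (ER) chaperone arm of 16 genes. The ATF4 arm holds 6 enzymes of amino acid and one-carbon synthesis, 6 amino acid transporters, 5 transcription regulators, 3 feedback and death-linked targets and 2 other targets. The ER arm holds 8 chaperones and oxidoreductases, 2 degradation factors, 4 sensors and XBP1 as one class, and 2 secreted ER stress proteins.

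In the integrated stress response, kinases that sense amino acid shortage, viral double-stranded RNA, haem shortage or misfolded ER proteins phosphorylate the translation factor eIF2α, which slows general translation while the mRNA of the transcription factor ATF4 is translated more. ATF4 then turns on genes for amino acid synthesis and uptake, together with DDIT3 (CHOP), TRIB3 and CHAC1, and PPP1R15A (GADD34) returns eIF2α to its active state. The unfolded protein response shares the kinase PERK, encoded by EIF2AK3, with this pathway, and adds the sensors IRE1, encoded by ERN1, and ATF6, which act through spliced XBP1 and cleaved ATF6 to raise ER chaperones, disulfide oxidoreductases and ER-associated degradation.

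The study asked how cell cycle checkpoints and the DNA sensor cGAS with its adaptor STING bear on inflammatory signalling after DNA damage. Polyadenylated RNA was sequenced in 16 groups of 2 libraries each, and all irradiated cells received 10 Gy. The first experiment used MCF10A, a non-tumorigenic human breast epithelial line. Its groups were cGAS KO, STING KO and XRCC4 KO cells 5 days after irradiation, wild-type (WT) cells 5 days after irradiation with a CDK1 inhibitor (CDK1i), WT cells 3 and 5 days after irradiation with the solvent DMSO, and untreated WT cells. The second experiment, also in MCF10A, collected cells 3 days after irradiation. Its groups were XRCC4 p53 double-knockout (DKO) cells and XRCC4 KO cells, each with and without an ATR kinase inhibitor (ATRi), p53 KO cells and WT cells. XRCC4 acts in non-homologous end joining of DNA breaks, p53 holds damaged cells in arrest, and ATR is a checkpoint kinase. The third experiment used hTERT RPE-1, a telomerase-immortalised human retinal pigment epithelial line, in which all groups were irradiated, given ATRi and collected at 3 days. Its groups were p53 KO cells, cells labelled WT cGAS, and WT cells. The labels do not say what WT cGAS stands for.

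Inhibitors were added 1 hour before irradiation and stayed until collection. Knockout lines were derived from single cells after lentiviral delivery of CRISPR-Cas9, so a knockout group can carry traits of its clone. No unirradiated knockout was in the series, DMSO was named only for WT cells of the first experiment, and every RPE-1 group had ATRi. Comparisons of these DMSO cells with untreated cells or knockouts may also differ in solvent, which cannot be told apart. The 3 experiments share no group and were tested apart. Whether the paired libraries of each group are separate cultures is not stated, so p-values measure only the spread between them, which may be technical.

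The sequences just upstream of 6 genes are shown because the results below turn on these genes and because each holds a site type linked to one of the 2 arms. The RefSeq promoter table (build GRCh38.p14) held windows of 300 bases, 250 before and 50 after the start site, for 34 of the 38 genes, not including PSPH, SHMT2, SLC7A11 and NUPR1. Both strands were searched for the C/EBP-ATF response element TGATGNAA, a site type bound by ATF4 with C/EBP proteins, and for the ER stress response element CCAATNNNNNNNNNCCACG, a site type bound by ATF6 with NF-Y. The C/EBP-ATF element was in 1270 of 35116 windows (3.62%) and in 5 of the 34 windows of these genes, those of ASNS, CHAC1, SLC3A2, SLC7A1 and HERPUD1. The ER stress element was in 27 of 35116 windows (0.0769%) and in 5 of the 34, those of HSPA5, HSP90B1, XBP1, CALR and CRELD2, all of the ER arm. A match describes these letters and does not show that a factor binds there. No other pattern was searched, so a window without a match can still hold another form of either element. In the 250 bases printed for each gene, 5′ to 3′ on the gene's own strand and ending at the base before the start site, capitals mark the element on either strand.
ASNS (chr7:97872409-97872658, minus strand): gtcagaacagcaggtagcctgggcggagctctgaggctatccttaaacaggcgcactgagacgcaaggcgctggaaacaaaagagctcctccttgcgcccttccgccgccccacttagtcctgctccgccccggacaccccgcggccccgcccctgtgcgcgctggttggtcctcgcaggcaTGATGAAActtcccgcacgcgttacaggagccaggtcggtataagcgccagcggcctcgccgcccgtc
CHAC1 (chr15:40953221-40953470, plus strand): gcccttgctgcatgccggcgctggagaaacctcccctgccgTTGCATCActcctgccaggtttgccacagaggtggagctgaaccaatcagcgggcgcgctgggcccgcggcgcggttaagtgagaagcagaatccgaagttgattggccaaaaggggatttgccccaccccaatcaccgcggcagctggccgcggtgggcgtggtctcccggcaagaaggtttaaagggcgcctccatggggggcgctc
HERPUD1 (chr16:56931892-56932141, plus strand): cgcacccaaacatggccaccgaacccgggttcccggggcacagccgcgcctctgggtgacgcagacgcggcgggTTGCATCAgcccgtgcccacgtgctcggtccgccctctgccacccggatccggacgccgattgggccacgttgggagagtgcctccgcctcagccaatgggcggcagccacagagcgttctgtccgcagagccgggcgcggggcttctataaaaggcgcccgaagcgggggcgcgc
HSPA5 (chr9:125241344-125241593, minus strand): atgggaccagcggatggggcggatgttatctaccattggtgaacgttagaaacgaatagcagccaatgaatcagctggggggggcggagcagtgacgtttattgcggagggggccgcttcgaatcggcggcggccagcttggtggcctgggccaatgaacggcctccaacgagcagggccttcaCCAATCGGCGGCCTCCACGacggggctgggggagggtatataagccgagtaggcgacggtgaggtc
HSP90B1 (chr12:103930160-103930409, plus strand): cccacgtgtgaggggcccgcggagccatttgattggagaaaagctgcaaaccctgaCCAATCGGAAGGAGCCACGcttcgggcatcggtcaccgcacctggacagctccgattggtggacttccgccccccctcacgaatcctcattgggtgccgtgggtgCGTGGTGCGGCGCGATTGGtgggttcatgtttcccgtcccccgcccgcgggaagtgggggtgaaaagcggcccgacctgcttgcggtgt
XBP1 (chr22:28800570-28800819, minus strand): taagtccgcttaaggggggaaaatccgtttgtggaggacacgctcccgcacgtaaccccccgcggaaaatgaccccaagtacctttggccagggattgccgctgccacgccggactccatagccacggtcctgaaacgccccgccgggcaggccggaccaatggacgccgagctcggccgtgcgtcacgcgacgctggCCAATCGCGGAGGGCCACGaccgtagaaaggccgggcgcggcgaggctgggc

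ASNS, CHAC1 and HERPUD1 each had 1 C/EBP-ATF element, beginning 68, 209 and 176 bases before the start site. HERPUD1 was the only ER arm gene whose window held that element. HSPA5 and XBP1 had 1 ER stress element each, beginning 66 and 52 bases before the start site, and HSP90B1 had 2, at 194 and 89 bases.

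Levels differed widely between the genes. On the length-adjusted scale of the deposited FPKM values, the highest means over the 32 libraries were those of the calcium-binding chaperone CALR (702), the chaperone HSP90B1 (524), the transporter heavy chain SLC3A2 (512) and the glutamine and alanine transporter SLC38A2 (383). VLDLR, a lipoprotein receptor and ATF4 target, had the lowest mean, 1.79 FPKM, and ERN1 followed at 5.83 FPKM. The ATF4 arm held the genes with the widest range between libraries. PHGDH, the first enzyme of serine synthesis, ran from 0.412 to 183 FPKM, a 445-fold range, followed by VLDLR (322-fold) and STC2 (214-fold). Each of these ranges ran from an XRCC4 KO MCF10A library to an RPE-1 library, so it spans both cell lines. CHAC1, a glutathione-degrading enzyme, ran from 0.535 to 47.7 FPKM, an 89.2-fold range, with both ends in MCF10A. SLC38A2 varied 2.14-fold. ER arm ranges lay between 2.24-fold for ATF6 and 7.49-fold for the co-chaperone DNAJB9, and HSPA5 (BiP, the master ER chaperone) varied 2.87-fold, between 142 and 408 FPKM.

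Total counts per library were 5590061 to 18585999, the lowest being WT at 3 days, replicate 2. All 38 genes passed the filter on low counts in every experiment, in which 15190, 16632 and 15469 genes were tested. MCF10A libraries carried basal epithelial keratins and adhesion genes at a summed 4371 FPKM or more, against at most 16.6 FPKM in RPE-1. Of 6 retinal pigment epithelial markers RPE65, RLBP1 and TTR stayed under 0.5 FPKM in every RPE-1 library and BEST1, PMEL and TYRP1 did not, and the list summed to 0.866 to 2.42 FPKM there. Of the blood cell markers PTPRC, CD3E and LYZ stayed under 0.5 FPKM in every library of both lines. The blood cell list as a whole summed to 18.5 to 160.5 FPKM in MCF10A and 71.8 to 353 FPKM in RPE-1, most of it CD68, a lysosomal protein, and CD14 and ITGAM were also above 0.5 FPKM in some libraries. Fibroblast and endothelial markers summed to at most 13.3 FPKM in MCF10A and 29 to 64.2 FPKM in RPE-1. The cGAS gene MB21D1 had 20 and 15 counts in cGAS KO and 251 and 254 in WT at 5 days, and the STING gene TMEM173 had 127 and 103 in the STING KO libraries, against 1214 and 894 in that WT group. XRCC4 counts were 88 and 66 in XRCC4 KO and 140 and 125 in WT at 5 days; a CRISPR edit need not lower the RNA, so these counts do not check the label. In RPE-1, MB21D1 had 6199 and 6158 counts in WT cGAS and 2 and 100 in WT. In the first experiment, libraries of one group stood apart: the chi-square statistic between the pair of libraries per gene was 21.5 to 45.1 in the 4 WT groups and 27.6 in STING KO, against at most 3.38 in every other group. The biological coefficient of variation was 0.187 in the first experiment, 0.0361 in the second and 0.0345 in the third.

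In untreated WT cells and WT cells at 3 days, the libraries stood further apart in the ATF4 arm than in the ER arm. Averaged over its 22 genes, log2 CPM (read counts scaled to library size) were 7.56 and 6.27 in the libraries of WT cells at 3 days, while the mean of the 16 ER arm genes was 6.96 and 6.95 in the same libraries. The WT libraries at 5 days had 6.44 and 6.41 for the ATF4 arm and 6.95 and 7.0 for the ER arm. Untreated libraries had 7.91 and 7.29 for the ATF4 arm and 6.91 and 6.93 for the ER arm. At 3 days, replicate 1 thus sat near untreated cells and replicate 2 near the 5-day cells. In STING KO the 2 libraries differed in both arms and in opposite directions: replicate 1 had 6.13 for the ATF4 arm and 7.41 for the ER arm, and replicate 2 had 7.14 and 6.69. In the second experiment no arm mean differed by more than 0.05 between the libraries of a group, and in the third by no more than 0.06.

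**Figure D1:**
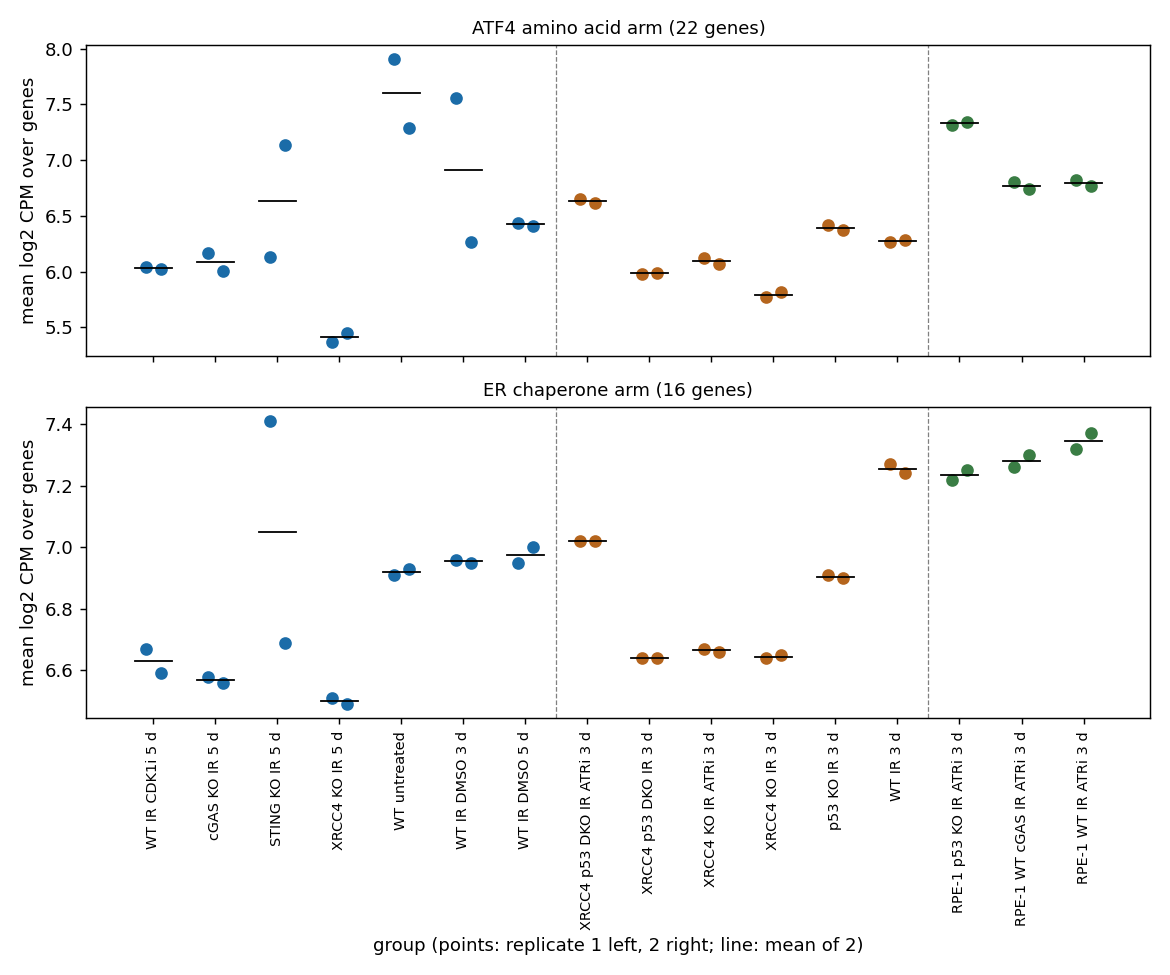
Mean log2 CPM (vertical axes) over the 22 ATF4 arm genes (top) and the 16 ER arm genes (bottom) in each of the 32 libraries, by group; points are libraries, replicate 1 on the left, bars are means of 2, and dashed lines part the 3 experiments. The ATF4 arm points of WT at 3 days in the first experiment (7.56 and 6.27) and of STING KO (6.13 and 7.14) lie far apart, and those of DKO cells with ATRi (6.65 and 6.62) lie above those without (5.98 and 5.99).

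In irradiated WT MCF10A cells at 5 days 11 of the 22 ATF4 arm genes were lower than in untreated cells, and most ER arm genes did not pass the test. In the ATF4 arm 1 gene rose and 10 did not pass, and of the 16 ER arm genes 1 fell and 1 rose, at an adjusted p under 0.05 in edgeR's quasi-likelihood test with Benjamini-Hochberg adjustment over all genes tested. Over all genes, 14.3% fell and 15.1% rose. The median log2 fold change was -1.19 for the ATF4 arm, 0.09 for the ER arm and 0.00 for all genes. In such bulk samples, fewer cells of a type and less RNA per cell cannot be told apart.

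Among the enzymes, 4 of 6 fell. SHMT2, which makes glycine from serine in mitochondria, had 133 and 155 CPM at 5 days and 482 and 382 in untreated cells (-1.59 ± 0.27, log2 fold change ± SE, adjusted p = 0.00331). MTHFD2, the next mitochondrial folate enzyme, had 103 and 112 CPM at 5 days and 336 and 298 in untreated cells (-1.56 ± 0.31). PHGDH fell to 14.6 and 16.7 CPM at 5 days, against 206 and 125 in untreated cells, and ASNS, which makes asparagine, to 43.4 and 37.8 CPM at 5 days, against 379.8 and 172 in untreated cells (-3.40 ± 1.04 for PHGDH and -2.77 ± 0.92 for ASNS). For each of these 4 genes both irradiated libraries lay below both untreated ones, but the untreated libraries of PHGDH and ASNS themselves differed widely. Leaving out any 1 of the 4 libraries ended the PHGDH and ASNS calls, with adjusted p up to 0.181 and 0.196, and leaving out WT at 5 days, replicate 1, ended that of MTHFD2 (adjusted p = 0.0558).

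Regulators and targets moved in both directions. ATF4 itself had 294 and 319.5 CPM at 5 days and 648 and 682 in untreated cells (-1.12 ± 0.30, adjusted p = 0.0206), and TRIB3, a pseudokinase that feeds back on ATF4, had 93.4 and 93.6 CPM at 5 days and 703 and 319 in untreated cells (-2.45 ± 0.54). ATF5, a related factor translated in the same way as ATF4, rose instead, to 60.7 and 57.9 CPM at 5 days, against 29.4 and 36.5 in untreated cells (0.85 ± 0.15, adjusted p = 0.00299). The 5-day ATF5 libraries were both above both untreated ones. DDIT3, a death-linked factor, had 15.4 and 13.9 CPM at 5 days and 56.9 and 17.9 in untreated cells (-1.37 ± 0.48, adjusted p = 0.0584), and CHAC1 had 13.7 and 10.6 CPM at 5 days and 60 and 29.9 in untreated cells (-1.90 ± 0.85, adjusted p = 0.121); neither passed the test. Of the transporters, SLC7A11 (cystine), SLC1A5 (neutral amino acids) and SLC3A2 fell, by log2 fold changes of -2.10, -1.26 and -1.06, and the other 3 did not pass.

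In the ER arm, HSPA5 did not pass, with 1012 and 1023 CPM at 5 days and 1013 and 961 in untreated cells (0.04 ± 0.29, adjusted p = 0.924). XBP1 was the 1 gene that fell, with 85.1 and 85.9 CPM at 5 days and 213 and 158 in untreated cells (-1.12 ± 0.18, adjusted p = 0.00185). CALR was the 1 gene that rose, with 850.2 and 817 CPM at 5 days and 366 and 534 in untreated cells (0.89 ± 0.27, adjusted p = 0.0301). Neither group overlapped the other for these 2 genes. Of the 14 calls in both arms, SHMT2, ATF5 and XBP1 held under every alternative, and CEBPB, a partner factor that fell by 0.57, also held without each library. The ATF4 and STC2 calls were lost without each of the 4 libraries (adjusted p up to 0.123 and 0.21). Those of TRIB3, SLC7A11, SLC3A2, SLC1A5 and CALR were lost without untreated replicate 1, WT at 5 days replicate 1 or its replicate 2 (adjusted p up to 0.0794, 0.174, 0.164, 0.108 and 0.17). Without untreated replicate 1, 6 genes were called, without WT at 5 days replicate 1, 4, and without its replicate 2, 5.

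Genes of the same pathways outside the 38 were read from fixed lists. Of 12 aminoacyl-tRNA synthetases that ATF4 is known to regulate, 8 fell and 0 rose at 5 days, and of the 8 remaining cytosolic synthetases 4 fell and 0 rose, where 14.3% of all genes fell. Among the 12 was GARS (218 and 224 CPM at 5 days and 603 and 420.4 untreated, -1.21 ± 0.35). Of 19 other ATF4 and stress response genes tested, 8 fell, with the amino acid transporter SLC43A1 at 0.275 and 0.415 CPM at 5 days and 9.08 and 5.16 untreated, and 1 rose, the stress factor ATF3, at 36.1 and 15.2 CPM at 5 days and 10.5 and 3.74 CPM in untreated cells (1.80 ± 0.56). Among 23 further ER stress genes, 2 fell and 1 rose. EIF2AK2, which encodes the double-stranded RNA sensing eIF2α kinase PKR and is also induced by interferon, had 484 and 279.6 CPM at 5 days and 63.9 and 65.3 CPM untreated (2.56 ± 0.25).

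At 3 days 1 of the 38 genes differed from untreated cells by the test. ATF5 was the gene called (46.2 and 53 CPM at 3 days and 29.4 and 36.5 CPM in untreated cells, 0.59 ± 0.15, adjusted p = 0.0445), where 3.65% of all genes rose and 2.87% fell. That call was lost without untreated replicate 1, WT at 3 days replicate 1 or WT at 3 days replicate 2, while 3 genes were called without untreated replicate 2 and 3 without WT at 3 days replicate 1. In the ER arm no gene passed edgeR's test, 1 had an unadjusted p under 0.05, and DESeq2 called 0. Over all 15190 genes tested, 3780 had an unadjusted p under 0.05. ASNS had 251 and 29 CPM in the pair of 3-day libraries, PHGDH 99.6 and 13, TRIB3 316 and 103 and CHAC1 50.6 and 6.35. In each of these genes replicate 1 was well above replicate 2, and none of them passed against untreated cells (-0.96, -1.51, -1.28 and -0.58). HSPA5, DNAJB9 and XBP1 did not pass either (0.01, 0.13 and -0.56), nor did ATF4 and DDIT3 (-0.40 and -1.02). Between 5 and 3 days 0 of 38 genes passed edgeR's test, 5 of the ATF4 arm and 1 of the ER arm had an unadjusted p under 0.05, and DESeq2 called 1, an ATF4 arm gene that fell. In the same comparison 0.217% of all genes rose and 0.0461% fell, and 2207 of 15190 had an unadjusted p under 0.05.

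**Figure D2:**
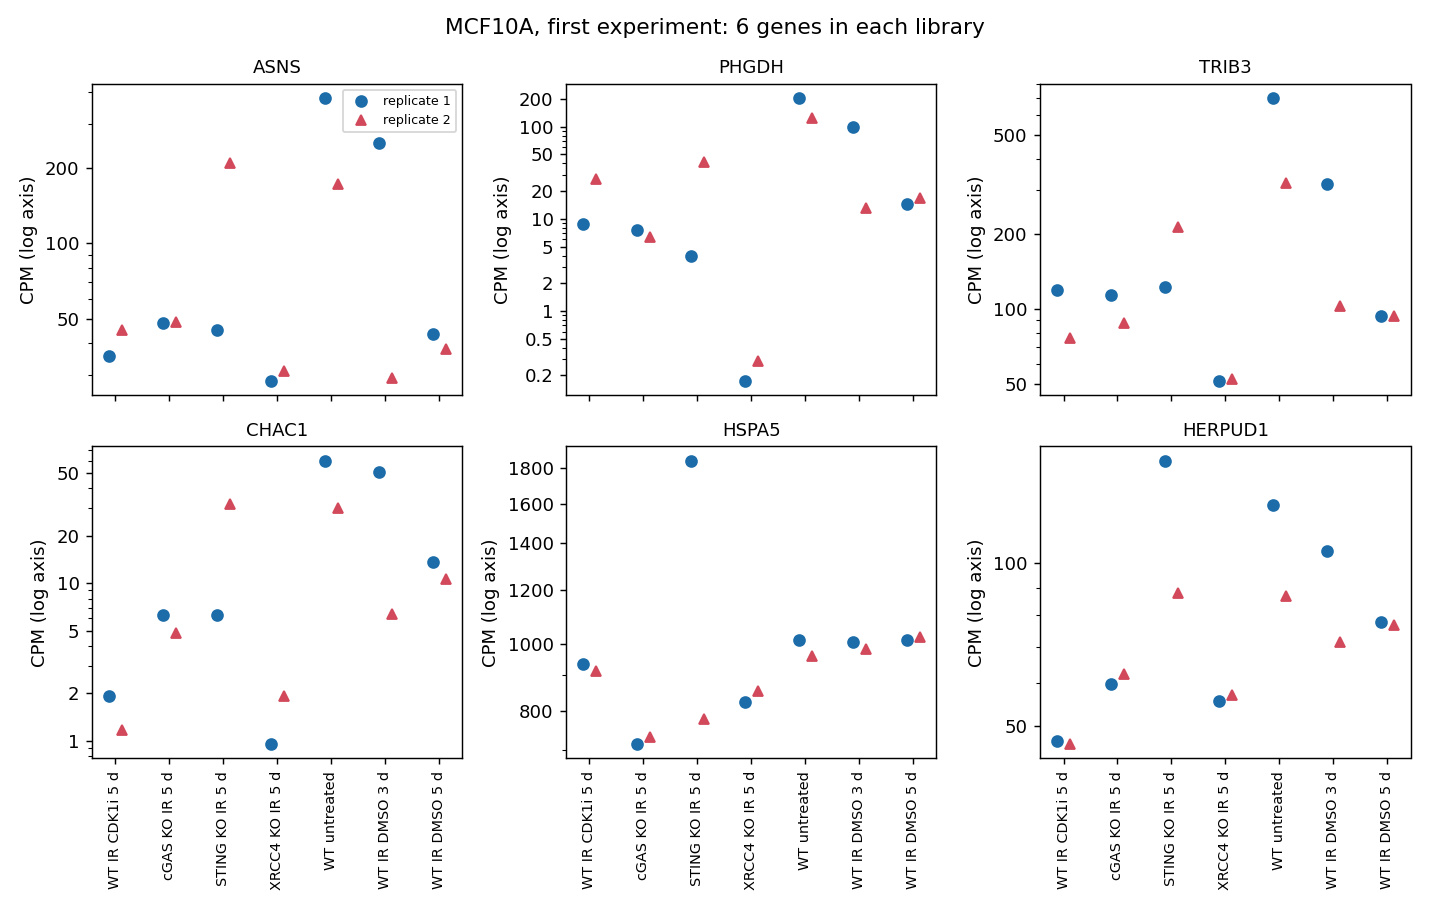
CPM (log axes) of 6 genes in each library of the first experiment, by group, with circles for replicate 1 and triangles for replicate 2. ASNS stands at 45.1 and 208 CPM in STING KO and 251 and 29 CPM in WT at 3 days, wide apart within each group, and HSPA5 at 1848 and 779 CPM in STING KO.

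Few of these genes differed between cells given the CDK1 inhibitor, which keeps cells from entering mitosis, and cells given DMSO at the same 5 days. DNAJB9, an ER co-chaperone that restrains IRE1, fell to 14.3 and 12 CPM with CDK1i, against 32.5 and 28.8 with DMSO (-1.22 ± 0.23, adjusted p = 0.0101). ERN1 had 19.9 and 17.1 CPM with CDK1i and 32.2 and 37.6 with DMSO (-0.91 ± 0.23, adjusted p = 0.0284), and CEBPB had 66.2 and 71.3 CPM with CDK1i and 89.7 and 96.3 with DMSO (-0.44 ± 0.10, adjusted p = 0.0249). So 1 ATF4 arm gene and 2 ER arm genes fell, where 7.37% of all genes fell, and none rose, where 4.73% of all genes rose. Of the genes with a higher estimate 0 had an unadjusted p under 0.05 in edgeR, and DESeq2 called 0 higher. Each of the 3 calls was lost without some library: 0 remained without WT at 5 days with DMSO replicate 1 or CDK1i replicate 2, and 1 without DMSO replicate 2. CHAC1 had 1.93 and 1.17 CPM with CDK1i and 13.7 and 10.6 with DMSO, with no overlap, but did not pass (-2.95 ± 1.08, adjusted p = 0.101). ASNS, PHGDH, TRIB3, ATF4, HSPA5 and XBP1 did not pass and had estimates between -0.29 (ATF4) and 0.19 (PHGDH). ATF3 fell with CDK1i, at 8.6 and 2.89 CPM, against 36.1 and 15.2 CPM with DMSO (-2.14 ± 0.56, adjusted p = 0.0381).

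Against untreated cells, the CDK1i libraries had 14 ATF4 arm genes lower and 1 higher, and 4 ER arm genes lower, where 15.3% of all genes fell and 13.5% rose. No ER arm gene was higher in edgeR's test, 0 with a higher estimate had an unadjusted p under 0.05, and DESeq2 called 0 higher. The median log2 fold change was -1.44 in the ATF4 arm and -0.11 in the ER arm. CHAC1 fell to 1.93 and 1.17 CPM with CDK1i, against 60 and 29.9 in untreated cells (-4.84 ± 1.06, adjusted p = 0.0104), and DDIT3 to 6.67 and 6.54 CPM with CDK1i, against 56.9 and 17.9 in untreated cells (-2.51 ± 0.52). PHGDH, SLC7A11 and STC2 fell (-3.21, -2.88 and -2.80), as did ASNS, TRIB3 and ATF4 (-2.77, -2.38 and -1.40), and ATF5 again rose (0.62 ± 0.15). The 4 lower ER arm genes were ERN1 (-1.45), XBP1 (-1.29), HERPUD1, a scaffold of ER-associated degradation (-1.21), and DNAJB9 (-1.07). HERPUD1 had 46.8 and 46.2 CPM with CDK1i and 128 and 86.8 in untreated cells. Of the 12 ATF4-linked synthetases 7 fell with CDK1i and 0 rose, and of the 19 other ATF4 and stress response genes 13 fell and 0 rose. The blood cell marker list summed to 23.3 and 18.5 FPKM with CDK1i, 106.2 and 81.4 FPKM with DMSO and 92.5 and 92.9 FPKM in untreated cells, and its part in these results was not tested. This comparison shares the untreated libraries with the one for DMSO. Its 19 calls fell to 7 without untreated replicate 1, 8 without CDK1i replicate 1 and 11 without CDK1i replicate 2, and to 0 when the spread was estimated from these 4 libraries alone.

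The knockouts of the first experiment were each compared with irradiated WT cells with DMSO at 5 days, so these comparisons share that pair of libraries. DMSO was not named for the knockouts, so a solvent difference cannot be told apart from the knockout. EDEM1, a lectin of ER-associated degradation, fell in all 3 of them. It had 96.2 and 94.9 CPM in cGAS KO, 112 and 108 in STING KO and 87.2 and 90 in XRCC4 KO, and 135 and 165 in WT. The log2 fold changes were -0.65 ± 0.11 in cGAS KO (adjusted p = 0.00395), -0.46 ± 0.11 in STING KO (adjusted p = 0.0174) and -0.76 ± 0.11 in XRCC4 KO (adjusted p = 0.0011). Every knockout library was below both WT libraries. CEBPB also fell in each, by log2 fold changes of -0.40 in cGAS KO, -0.40 in STING KO and -0.62 in XRCC4 KO.

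In cGAS KO cells 2 ATF4 arm and 2 ER arm genes fell, where 6.88% of all genes fell, and none rose, where 6.65% of all genes rose. Of the genes with a higher estimate 1 had an unadjusted p under 0.05 in edgeR, and DESeq2 called 0 higher. Over all 15190 genes tested, 4341 had an unadjusted p under 0.05 in either direction. The other 2 calls were VLDLR, with 6 and 3 counts in cGAS KO and 61 and 76 counts in WT (-3.71 ± 0.76), and ERN1 (19.1 and 17.2 CPM in cGAS KO, 32.2 and 37.6 CPM in WT, -0.94 ± 0.23). The ER arm had a median log2 fold change of -0.37, and all 16 of its estimates were below 0, with HSPA5 at 715 and 733 CPM in cGAS KO and 1012 and 1023 in WT (-0.49 ± 0.29, adjusted p = 0.297). No call held without cGAS KO replicate 1 or replicate 2, and 2 genes were called without WT replicate 1, as without WT replicate 2.

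In STING KO cells EDEM1 and CEBPB were the only calls, 1 in each arm and both lower, where 7.73% of all genes fell and 7.43% rose. No gene rose in edgeR's test, 3 with a higher estimate, all of the ER arm, had an unadjusted p under 0.05, and DESeq2 called 1 higher. Over all 15190 genes tested, 4502 had an unadjusted p under 0.05 in either direction. HSPA5 had 1848 and 779 CPM in STING KO and 1012 and 1023 in WT (0.37 ± 0.29, adjusted p = 0.434). PDIA4, an ER disulfide isomerase, had 509.5 and 184 CPM in STING KO and 259 and 292 in WT. In both genes STING KO replicate 1 was above and replicate 2 below the WT libraries. HYOU1, CRELD2, MANF and HERPUD1 were likewise higher in STING KO replicate 1 (497, 51.3, 118 and 155 CPM) than in replicate 2 (268, 21.3, 47 and 87.8 CPM). ASNS, CHAC1 and PHGDH stood the other way, at 45.1, 6.28 and 4 CPM in replicate 1 and 208, 31.9 and 41.8 CPM in replicate 2. The number of calls was 8 without STING KO replicate 2, 1 without WT replicate 1 and 0 without WT replicate 2.

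In XRCC4 KO cells at 5 days 4 ATF4 arm and 3 ER arm genes fell and ATF5 rose, where 12.4% of all genes fell and 12.4% rose. By the deposited FPKM values, whose scaling moved the median of all genes by -0.27, 9 fell and 0 rose, where 1656 of all 17558 genes tested fell and 373 rose. PHGDH had 2 and 3 counts in XRCC4 KO and 213 and 282 counts in WT (-6.04 ± 1.88, adjusted p = 0.0428), and VLDLR had 4 and 1 counts in XRCC4 KO and 61 and 76 in WT (-4.20 ± 0.87), so both fitted changes rest on a handful of reads in XRCC4 KO. STC2, a secreted glycoprotein, had 19.3 and 23.4 CPM in XRCC4 KO and 101 and 141 in WT (-2.50 ± 0.64), and ATF5 had 98.6 and 85.9 CPM in XRCC4 KO and 60.7 and 57.9 in WT (0.64 ± 0.15). CHAC1 had 0.954 and 1.93 CPM in XRCC4 KO and 13.7 and 10.6 in WT and did not pass (-3.08 ± 1.16, adjusted p = 0.082), and neither did HSPA5 (-0.28), XBP1 (-0.52), ATF4 (-0.75) or ASNS (-0.46). ERN1 and the disulfide isomerase PDIA6 fell by 1.11 and 0.73 on the log2 scale. No ER arm gene rose in edgeR's test, all 16 estimates were below 0, and DESeq2 called 0 higher. CEBPB and EDEM1 held under every alternative, while 2 genes were called without XRCC4 KO replicate 1, 3 without its replicate 2 and 4 without WT replicate 2.

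The second experiment gave far tighter replicates, and at 3 days XRCC4 KO cells had the ER arm lower nearly throughout. Of its 16 genes 15 fell and none rose, where 27.5% of all genes fell and 28.6% rose, and the median log2 fold change was -0.58. Among its genes 0 with a higher estimate had an unadjusted p under 0.05 in edgeR, and DESeq2 called 0 higher. The ATF4 arm was mixed, with 10 lower and 7 higher and a median of -0.10. Tested on FPKM values, which moved the median of all genes by -0.19, 30 of the 38 genes fell and 3 rose. Among all 18774 genes so tested, 4688 fell and 1978 rose.

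PDIA4 had 266 and 264 CPM in XRCC4 KO and 535 and 538 in WT (-1.02 ± 0.04, adjusted p = 1.57e-17). HSPA5 had 659.9 and 666 CPM in XRCC4 KO and 922 and 952 in WT (-0.50 ± 0.04, adjusted p = 5.98e-12). EDEM1 had 88.1 and 93.2 CPM in XRCC4 KO and 196 and 188 in WT (-1.08 ± 0.05). All knockout libraries lay below all WT libraries for the 3 genes, as they also did for ERN1 (-1.05 ± 0.07), DNAJB9 (-0.95 ± 0.08), CRELD2, a secreted ER stress protein (-0.83 ± 0.07), and XBP1 (-0.29 ± 0.06). CALR alone of the ER arm did not pass, with 966 and 1000.3 CPM in XRCC4 KO and 981 and 995 in WT (-0.01 ± 0.04).

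The ATF4 arm split by role in XRCC4 KO cells. Of the 6 transporters 5 were higher, among them SLC1A5 (301 and 299 CPM in XRCC4 KO and 187 and 182 in WT, 0.70 ± 0.04) and both chains of the leucine transporter, SLC7A5 (0.43 ± 0.04) and SLC3A2 (0.41 ± 0.04). The cystine transporter SLC7A11 was the 1 that fell (16.5 and 13.3 CPM in XRCC4 KO and 31.7 and 32.1 in WT, -1.09 ± 0.11). By counts, both chains of the cystine exchanger, SLC7A11 and SLC3A2, thus changed in opposite directions. On FPKM values SLC1A5 (0.37) and SLC7A5 (0.18) passed as higher, while SLC3A2 (0.14), SLC38A2 (0.04) and SLC7A1 (0.02) did not pass. PHGDH had 1.25 and 1.4 CPM in XRCC4 KO and 9.21 and 8.84 in WT (-2.76 ± 0.21, adjusted p = 1.22e-11), CHAC1 had 1.18 and 1.33 CPM in XRCC4 KO and 3.88 and 4.57 in WT (-1.75 ± 0.24), and DDIT3 had 6.11 and 5.9 CPM in XRCC4 KO and 13.4 and 16 in WT (-1.30 ± 0.13). VLDLR fell to 5 and 9 counts in XRCC4 KO, against 105 and 107 counts in WT (-3.80 ± 0.27). ATF4 mRNA did not pass, at 251 and 252 CPM in XRCC4 KO and 251 and 253 in WT, and ASNS and PPP1R15A did not pass either (-0.04 and 0.02). ATF5 again rose, to 98.3 and 99.2 CPM in XRCC4 KO, against 57 and 61.9 in WT (0.73 ± 0.06).

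Of 23 further ER stress genes 16 fell and 2 rose in XRCC4 KO, where 27.5% of all genes fell and 28.6% rose. HSPA13, an ER-linked Hsp70 relative, had 17.8 and 18.8 CPM in XRCC4 KO and 49.2 and 46.1 in WT (-1.38 ± 0.08), and SIL1, a nucleotide exchange factor of HSPA5, was one of the 2 that rose (0.41 ± 0.06). Of the 12 ATF4-linked aminoacyl-tRNA synthetases 5 rose and 2 fell, with LARS at 314 and 327 CPM in XRCC4 KO and 111 and 110.0 in WT (1.54 ± 0.04), and 6 of the 8 remaining cytosolic synthetases rose.

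In p53 KO cells part of the ER arm was lower as well, against the same WT libraries. In p53 KO cells 11 ER arm genes fell and none rose, where 27% of all genes fell and 25.9% rose, with a median of -0.21. Again 0 ER arm genes with a higher estimate had an unadjusted p under 0.05 in edgeR and DESeq2 called 0 higher. In the ATF4 arm 10 rose and 4 fell. On the deposited FPKM values, which moved the median of all genes by 0.14, 13 of the 38 genes rose and 6 fell. Among all 18774 genes so tested, 3827 rose and 1965 fell. Of the 11 lower ER arm genes only DNAJB9, PDIA4, CALR and CRELD2 passed on FPKM values. HERPUD1 (0.03) and EIF2AK3 (0.19) had the opposite sign there. DNAJB9 had 22.1 and 21.5 CPM in p53 KO and 55.7 and 53.6 in WT (-1.32 ± 0.08, adjusted p = 1.21e-13), and PDIA4 had 293 and 279 CPM in p53 KO and 535 and 538 in WT (-0.91 ± 0.04, adjusted p = 1.55e-16). HSPA5 fell less, to 799.7 and 833 CPM in p53 KO, against 922 and 952 in WT (-0.20 ± 0.04), and ERN1 and EDEM1 fell by 0.64 and 0.54. Neither HSP90B1 nor PDIA6 nor ATF6 passed (0.05, -0.02 and 0.01).

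PHGDH was the member with the largest rise in p53 KO, at 46.7 and 45.4 CPM in p53 KO, against 9.21 and 8.84 in WT (2.35 ± 0.09, adjusted p = 2.33e-17). PSPH, the last enzyme of the same serine pathway, fell to 27.2 and 28.7 CPM in p53 KO, against 55.4 and 50.2 in WT (-0.92 ± 0.07), and PSAT1, the middle enzyme, did not pass (-0.09). STC2 (0.46) and SHMT2 (0.40) also rose, VLDLR fell (-0.62), and SLC38A2 fell (-0.16) with the opposite sign on FPKM values. NUPR1, a stress-induced chromatin protein, fell to 36.2 and 32 CPM in p53 KO, against 84.9 and 87.8 in WT (-1.33 ± 0.06). ATF4 had 298 and 274 CPM in p53 KO and 251 and 253 in WT (0.18 ± 0.05), PPP1R15A 51.2 and 53.1 CPM in p53 KO and 38.4 and 39 in WT (0.43 ± 0.06), and ASNS 30.3 and 29.2 CPM in p53 KO and 27.3 and 24.4 in WT (0.21 ± 0.08). DDIT3, CHAC1 and TRIB3 did not pass (0.22, 0.32 and 0.04). The ASNS call was lost without WT replicate 2 or p53 KO replicate 1, with adjusted p up to 0.307. Of the 12 ATF4-linked synthetases 6 rose and 2 fell in p53 KO, of the 19 other ATF4 and stress response genes 7 rose and 3 fell, and of the 23 further ER stress genes 2 rose and 13 fell. Beside these lists, 25.9% of all genes rose and 27% fell.

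DKO cells differed from XRCC4 KO cells in 27 of the 38 genes, with no common direction. In the DKO cells 9 ATF4 arm genes were higher and 9 lower than in XRCC4 KO cells, and 5 ER arm genes were higher and 4 lower, where 32.2% of all genes were higher and 32.7% lower. With FPKM values the split was 21 higher and 5 lower over both arms, with the median of all genes moved by 0.29. Of all 18774 genes tested on FPKM values, 6113 were higher and 2358 lower. PHGDH had 16.2 and 16.1 CPM in DKO and 1.25 and 1.4 in XRCC4 KO (3.60 ± 0.18, adjusted p = 1.24e-15). All 3 feedback and death-linked targets were higher, with CHAC1 at 2.69 and 2.74 CPM in DKO and 1.18 and 1.33 in XRCC4 KO (1.11 ± 0.27), PPP1R15A at 68.2 and 67.4 CPM in DKO and 37.8 and 40.7 in XRCC4 KO (0.79 ± 0.06) and TRIB3 at 88.8 and 84.8 CPM in DKO and 63.2 and 63.4 in XRCC4 KO (0.45 ± 0.06). DDIT3 (0.93 ± 0.14) and ASNS (0.40 ± 0.08) were higher too, while NUPR1 fell to 20.5 and 20 CPM in DKO, against 57.9 and 57.2 in XRCC4 KO (-1.51 ± 0.07), and PSAT1 by 0.60. ATF4 was lower by counts (-0.17). Its estimate on FPKM values was 0.10 and did not pass, and was -0.19 less the median of all genes. SLC7A5 fell to 738 and 739 CPM in DKO, against 1672 and 1716 in XRCC4 KO (-1.20 ± 0.04), and SLC3A2 to 295 and 294 CPM in DKO, against 550.4 and 557 in XRCC4 KO (-0.91 ± 0.04). The leucine transporter chains therefore moved together here, in the direction opposite to SLC7A11 (1.00 ± 0.11). HSP90B1 rose most in the ER arm (0.42 ± 0.04), and DNAJB9 fell most (-0.41 ± 0.09). MANF, PDIA6 and HSPA5 rose (0.37, 0.17 and 0.14) and HYOU1 fell (-0.37). EDEM1 and CALR were lower by counts (-0.22 and -0.22), while on FPKM values their estimates were 0.18 and 0.04 and did not pass. Less the median of all genes, these FPKM estimates were -0.11 and -0.25. In DKO against XRCC4 KO, 1 of the 12 ATF4-linked synthetases rose and 9 fell, and 5 of the 23 further ER stress genes rose and 12 fell.

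Most of the list was lower in DKO cells than in p53 KO cells. In DKO against p53 KO cells 15 ATF4 arm genes fell and 5 rose, and 12 ER arm genes fell and 1 rose, where 25% of all genes fell and 24.6% rose. FPKM values gave 24 of the 38 lower and 2 higher, where 2879 of all 18774 genes tested were lower and 1996 higher. EDEM1 had 79.2 and 76.3 CPM in DKO and 130.5 and 133 in p53 KO (-0.76 ± 0.05), and all 4 of ERN1, EIF2AK3, ATF6 and XBP1 fell, by 0.47, 0.43, 0.29 and 0.16 on the log2 scale. HSPA5 had 743 and 720.3 CPM in DKO and 799.7 and 833 in p53 KO (-0.16 ± 0.04), and CALR was the gene that rose (0.12 ± 0.04). ATF4 had 222 and 224 CPM in DKO and 298 and 274 in p53 KO (-0.36 ± 0.05), while ATF5 rose to 87.5 and 82 CPM in DKO, against 56.7 and 52.7 in p53 KO (0.63 ± 0.06). PHGDH had 16.2 and 16.1 CPM in DKO and 46.7 and 45.4 in p53 KO (-1.51 ± 0.08), VLDLR 0.56 and 0.757 CPM in DKO and 4.37 and 4.4 in p53 KO (-2.72 ± 0.26), and CHAC1 2.69 and 2.74 CPM in DKO and 5.37 and 5.19 in p53 KO (-0.96 ± 0.18). STC2, DDIT3, HERPUD1 and TRIB3 fell by 0.85, 0.59, 0.43 and 0.27, and PPP1R15A, SLC1A5 and PSPH rose (0.38, 0.30 and 0.29). In DKO against p53 KO, 2 of the 12 ATF4-linked synthetases rose and 8 fell, and of the 23 further ER stress genes 3 rose and 13 fell. This comparison shares libraries with the others of the second experiment, so their values are given side by side only.

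**Figure D3:**
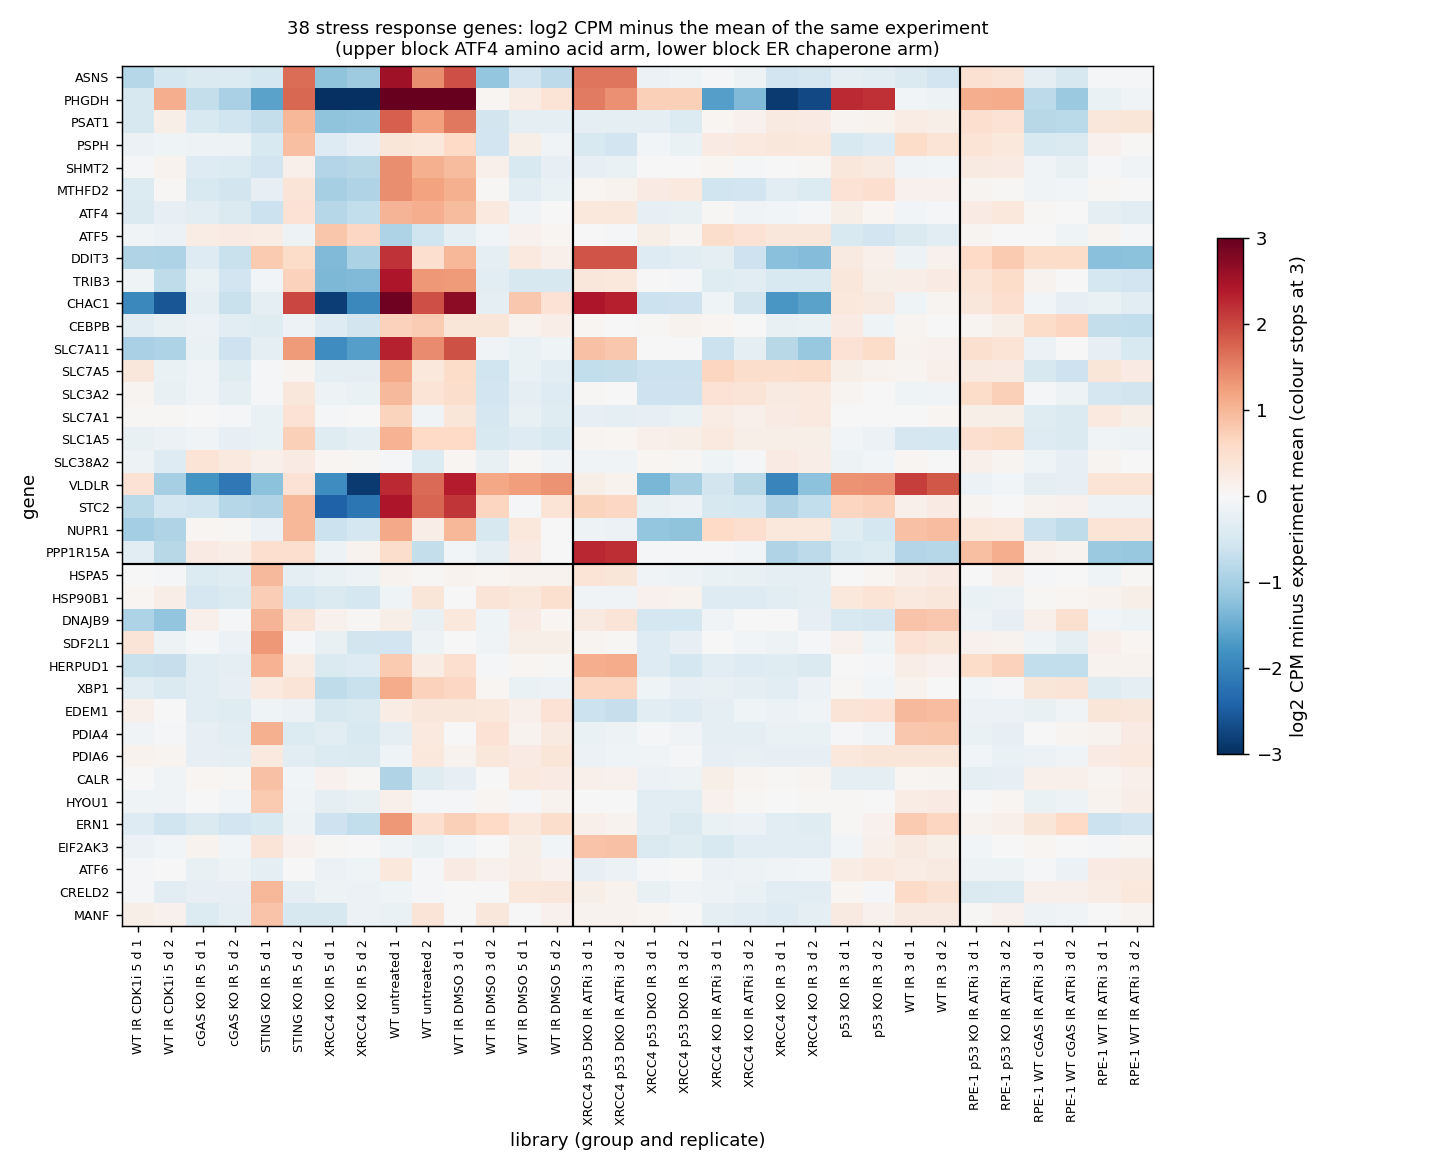
Log2 CPM of each of the 38 genes (vertical axis, ATF4 arm above the line and ER arm below it) in each library (horizontal axis), minus that gene's mean in the same experiment; red is above and blue below the mean, and colours stop at 3. In the second experiment CHAC1, PPP1R15A, DDIT3, ASNS and HERPUD1 are reddest in DKO cells with ATRi (CHAC1 23.4 and 22.3 CPM), and in the first the ER arm is reddest in STING KO replicate 1 (HSPA5 1848 CPM).

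With the ATR inhibitor 22 of the 38 genes rose and 10 fell in DKO cells, while 9 rose and 3 fell in XRCC4 KO cells. Over all genes, 6.67% rose and 10.3% fell in XRCC4 KO cells, fewer than the DKO shares given next. The test of the difference, given below, was positive for 19 genes and negative for 5. Of all genes 13% had a positive and 21% a negative difference. In DKO cells with ATRi, 12 ATF4 arm genes rose and 6 fell and 10 ER arm genes rose and 4 fell against DKO cells without it, where 26.1% of all genes rose and 32.4% fell. The median log2 fold change was 0.45 in the ATF4 arm, 0.32 in the ER arm and -0.02 over all genes. On the deposited FPKM values, which moved the median of all genes by 0.17, 24 genes rose and 0 fell, with MTHFD2, ATF5, SLC1A5, PDIA4 and ATF6 changing sign. Among all 18774 genes so tested, 3713 rose and 1847 fell.

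The largest rises in the ATF4 arm were those of CHAC1, PPP1R15A, DDIT3 and ASNS. CHAC1 had 23.4 and 22.3 CPM with ATRi and 2.69 and 2.74 without in DKO cells (3.07 ± 0.13, adjusted p = 1.14e-16). PPP1R15A had 337 and 328 CPM with ATRi and 68.2 and 67.4 without (2.29 ± 0.05, adjusted p = 4.21e-23), and DDIT3 54.4 and 54.9 CPM with ATRi and 11.3 and 11.7 without (2.25 ± 0.08, adjusted p = 1.33e-17). TRIB3 rose less, to 111 and 108 CPM with ATRi, against 88.8 and 84.8 without (0.34 ± 0.05). For all 4 genes both ATRi libraries were above both libraries without it. ATF4 itself had 329 and 325 CPM with ATRi and 222 and 224 without (0.55 ± 0.05, adjusted p = 8.58e-11), and NUPR1 and STC2 rose by 1.03 and 0.84 on the log2 scale. VLDLR had 1.87 and 1.75 CPM with ATRi and 0.56 and 0.757 without (1.45 ± 0.32), a change that rests on few reads. The blood cell marker list summed to 160.5 and 151.1 FPKM in DKO cells with ATRi and 92.8 and 100 FPKM without, with CD68 and ITGAM called higher and CD14 lower; its part in these results was not tested.

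The amino acid genes did not follow as a group. ASNS rose to 112 and 112 CPM with ATRi, against 32.4 and 33.5 without (1.76 ± 0.06, adjusted p = 9.12e-19), and PHGDH to 29.2 and 25.4 CPM with ATRi, against 16.2 and 16.1 without (0.75 ± 0.08). PSPH, SHMT2 and MTHFD2 fell, by 0.39, 0.20 and 0.18, the last with the opposite sign on FPKM values, and PSAT1 did not pass (0.05). Of 6 transporters SLC7A11 (0.83 ± 0.08) and SLC3A2 (0.64 ± 0.04) rose, which together form the cystine exchanger, and SLC38A2 and SLC1A5 fell by 0.15 and 0.10, the second of them with the opposite sign on FPKM values. Neither SLC7A5 nor SLC7A1 passed.

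In the ER arm, HERPUD1 and the PERK gene EIF2AK3 rose more than any chaperone. HERPUD1 had 129 and 131 CPM with ATRi and 45.8 and 41.6 without (1.57 ± 0.05, adjusted p = 2.77e-18). Its window printed above held a C/EBP-ATF element, and whether that element bears on the rise was not tested. EIF2AK3 had 48.6 and 49.2 CPM with ATRi and 19.7 and 20.7 without (1.28 ± 0.07, adjusted p = 9.15e-14). XBP1 had 149.8 and 148 CPM with ATRi and 87 and 80.9 without (0.83 ± 0.05), DNAJB9 36.9 and 40 CPM with ATRi and 21.2 and 21.3 without (0.86 ± 0.08), and HSPA5 1059 and 1041 CPM with ATRi and 743 and 720.3 without (0.52 ± 0.04, adjusted p = 2.43e-12). None of these pairs of groups overlapped. Of the 8 chaperones and oxidoreductases 5 rose and 2 fell, HSP90B1 to 904 and 902 CPM with ATRi, against 1073 and 1058 without (-0.24 ± 0.04), and PDIA4 by 0.11, with the opposite sign on FPKM values. EDEM1 also fell, to 64 and 61.5 CPM with ATRi, against 79.2 and 76.3 without (-0.31 ± 0.05). Of the genes whose windows held the ER stress element, HSPA5, XBP1, CALR and CRELD2 were higher with ATRi and HSP90B1 was lower. CALR had 1054 and 1035 CPM with ATRi and 840 and 851 without, and CRELD2 33.3 and 32.2 with ATRi and 25.3 and 27.5 without. Whether the element bears on these changes was not tested.

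Outside the 38 genes, ATF3 rose to 170.4 and 171 CPM with ATRi in DKO cells, against 11.1 and 13.1 CPM without (3.82 ± 0.07, adjusted p = 9.49e-24), and 12 of 19 other ATF4 and stress response genes rose while 5 fell. Of 23 further ER stress genes 13 rose, among them HSPA13 and the ubiquitin ligase SYVN1, and 8 fell. The tRNA synthetases did not share a direction: of the 12 linked to ATF4, 4 rose and 4 fell, and of the 8 others 7 fell. Beside all these lists, 26.1% of all genes rose and 32.4% fell with ATRi in DKO cells. EIF2AK2 rose to 282 and 275 CPM with ATRi, against 106 and 100.2 CPM without (1.44 ± 0.06).

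In XRCC4 KO cells only ATF4 arm genes passed edgeR's test with the inhibitor. There 9 ATF4 arm genes rose and 3 fell, and 0 of 16 ER arm genes were called, where 6.67% of all genes rose and 10.3% fell. Of the ER arm 2 genes had an unadjusted p under 0.05 in edgeR, and DESeq2 called 1, which fell. Over all 16632 genes tested, 4796 had an unadjusted p under 0.05. ER arm log2 fold changes ran from -0.10 to 0.14. CHAC1 had 3.88 and 2.88 CPM with ATRi and 1.18 and 1.33 without (1.43 ± 0.26, adjusted p = 0.000225), PPP1R15A 68.1 and 66.5 CPM with ATRi and 37.8 and 40.7 without (0.78 ± 0.06, adjusted p = 2.03e-10), and DDIT3 12 and 9.58 CPM with ATRi and 6.11 and 5.9 without (0.85 ± 0.14). ASNS had 36.1 and 33.2 CPM with ATRi and 24.5 and 25.6 without (0.47 ± 0.08, adjusted p = 5.98e-05), and PHGDH 3.05 and 3.82 CPM with ATRi and 1.25 and 1.4 without (1.37 ± 0.26). In these 5 genes both ATRi libraries were above both others. SLC38A2, MTHFD2 and PSAT1 fell by 0.30, 0.21 and 0.18. HSPA5 had 696 and 686 CPM with ATRi and 659.9 and 666 without (0.06 ± 0.04, adjusted p = 0.283). ATF3 had 25.1 and 25.5 CPM with ATRi and 7.75 and 6.46 CPM without (1.82 ± 0.11). Of the 12 ATF4-linked synthetases 1 fell and 0 rose, and of the 23 further ER stress genes 5 rose and 2 fell.

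The difference between the 2 responses was tested directly, as the ATRi effect in DKO cells minus that in XRCC4 KO cells. It was positive for 11 ATF4 arm and 8 ER arm genes and negative for 3 and 2, where 13% of all genes had a positive and 21% a negative difference. With FPKM values 19 differences were positive and 0 negative, and DESeq2 called 17 positive and 1 negative. Over all genes, FPKM values gave 1395 positive and 687 negative of 18774, and DESeq2 gave 1361 positive and 2329 negative of 16632. CHAC1 had a difference of 1.64 ± 0.34 on the log2 scale, HERPUD1 1.53 ± 0.08, PPP1R15A 1.51 ± 0.08, DDIT3 1.41 ± 0.18, EIF2AK3 1.34 ± 0.12 and ASNS 1.29 ± 0.10. XBP1, DNAJB9, ATF4, HSPA5 and TRIB3 followed with 0.83, 0.81, 0.53, 0.46 and 0.21. The negative differences were those of PSPH (-0.34), ATF5 (-0.29), SHMT2 (-0.19), EDEM1 (-0.25, positive on FPKM values) and HSP90B1 (-0.14). PHGDH went the other way by estimate, with -0.62 ± 0.28, and did not pass. The design has no ATRi group with p53 KO alone or in WT MCF10A cells, so an effect of p53 loss without the XRCC4 knockout cannot be read from it.

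**Figure D4:**
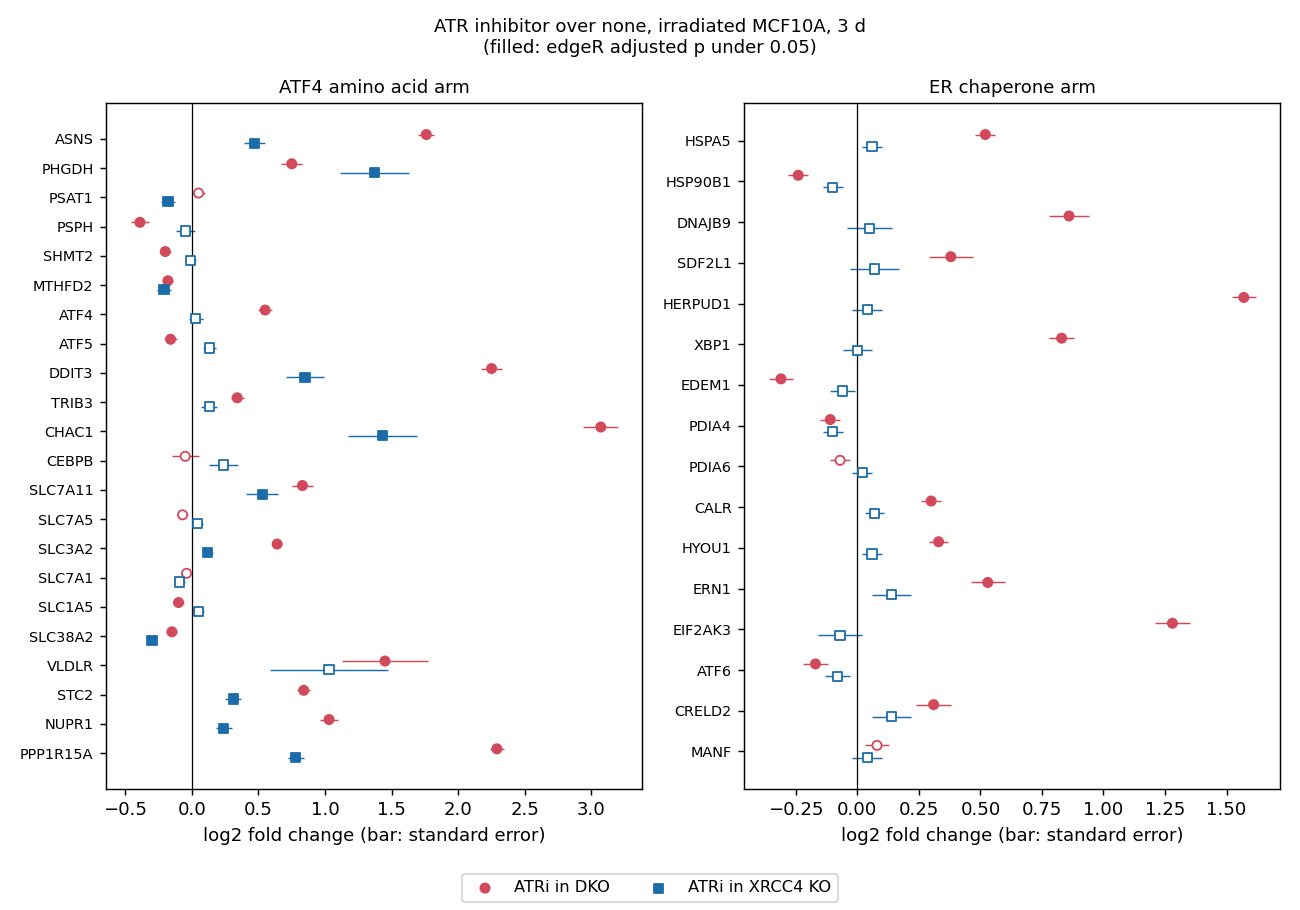
Log2 fold change with ATRi over without (horizontal axes, bars are standard errors) of each gene in DKO cells (red circles) and XRCC4 KO cells (blue squares); filled symbols have an edgeR adjusted p under 0.05. HERPUD1 lies at 1.57 in DKO and 0.04 in XRCC4 KO cells, and no ER arm square is filled.

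As a description over the 12 libraries of the second experiment, which share the depth and groups above, the genes whose log2 CPM followed ASNS most closely were PPP1R15A (Pearson r = 0.994), TRIM69 (0.991) and MYD88 (0.983), while the median r of ASNS with the other 21 ATF4 arm genes was 0.09. ASNS had 112 and 112 CPM in DKO cells with ATRi and 24.4 to 36.1 CPM in the other libraries. Its r values therefore rest largely on that group. Those closest to HSPA5 were LIF (0.983), ZBTB18 (0.969) and POFUT2 (0.966), and its median r with the other 15 ER arm genes was 0.57.

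In RPE-1 cells, all irradiated and given ATRi, 15 of the 22 ATF4 arm genes were higher in p53 KO than in WT cells. One gene of that arm fell and 6 did not pass, where 34.2% of all genes rose and 32.5% fell, with a median log2 fold change of 0.40. The ER arm had 3 genes higher and 8 lower, with a median of -0.11, and these counts changed with the scaling. On the deposited FPKM values, which moved the median of all genes by 0.35, 6 ER arm genes were higher and 2 lower, and over both arms 26 rose and 2 fell. The calls over all 16806 genes tested on FPKM values shifted as well, with 6200 higher and 1809 lower.

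PPP1R15A had 646 and 727 CPM in RPE-1 p53 KO and 161 and 157 in WT (2.11 ± 0.05, adjusted p = 2.08e-14), and DDIT3 188 and 213 CPM in p53 KO and 52.2 and 52.9 in WT (1.93 ± 0.06, adjusted p = 1.73e-14). TRIB3 had 86.2 and 95.6 CPM in p53 KO and 45.1 and 43.5 in WT (1.04 ± 0.06), and CHAC1 20.3 and 22.9 CPM in p53 KO and 14.1 and 12.8 in WT (0.69 ± 0.10). No p53 KO library overlapped WT in these 4 genes. Of the 6 enzymes 5 rose, with PHGDH at 165 and 169 CPM in p53 KO and 67.7 and 71.8 in WT (1.26 ± 0.07) and ASNS at 65.7 and 62.2 CPM in p53 KO and 46.6 and 46.4 in WT (0.46 ± 0.07), and SLC3A2 had 742 and 837 CPM in p53 KO and 359.5 and 347 in WT (1.16 ± 0.05). ATF4 rose to 486 and 515 CPM in p53 KO, against 340.5 and 325 in WT (0.59 ± 0.04), and VLDLR was the gene that fell (-0.55 ± 0.08).

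The ER arm genes that rose in RPE-1 p53 KO were ERN1 (30.6 and 31.7 CPM in p53 KO and 18.2 and 19 in WT, 0.74 ± 0.09), HERPUD1 (189.6 and 209 CPM in p53 KO and 141 and 140.4 in WT, 0.50 ± 0.05) and XBP1 (0.26 ± 0.05). By counts no chaperone passed as higher: HSPA5 had 1092 and 1193 CPM in p53 KO and 982 and 1096 in WT, with overlapping libraries (0.14 ± 0.06, adjusted p = 0.0502), and CALR had 1454 and 1467 CPM in p53 KO and 1830.2 and 1932 in WT (-0.37 ± 0.04). EDEM1, PDIA6 and PDIA4 fell by 0.53, 0.42 and 0.41. CRELD2 had the largest fall, to 34.7 and 35.2 CPM in p53 KO, against 54.9 and 58.6 in WT (-0.70 ± 0.06). HYOU1 (-0.13) and ATF6 (-0.40) were lower by counts and had the opposite sign on FPKM values. EIF2AK3, raised by ATRi in DKO MCF10A cells, had 40.7 and 43.6 CPM in RPE-1 p53 KO and 41.8 and 43.9 in WT (-0.02 ± 0.07). The 2 experiments differ in cell line, genotype and control, so no test sets their responses against each other. Of 17 other ATF4 and stress response genes 9 rose and 4 fell, against 34.2% higher and 32.5% lower among all genes, with ATF3 at 43.7 and 52.4 CPM in p53 KO and 24.4 and 26.3 in WT (0.92 ± 0.09). Of 24 further ER stress genes 4 rose and 13 fell, the largest fall being that of SIL1 (-1.12 ± 0.06). Of the 12 ATF4-linked aminoacyl-tRNA synthetases 4 rose and 3 fell, with a median log2 fold change of 0.04, and of the 8 others 1 rose and 6 fell. Blood cell markers moved with the groups: their summed level was 184.6 and 188.5 FPKM in p53 KO, 350.8 and 353 FPKM in WT cGAS and 71.8 and 81.5 FPKM in WT. In p53 KO CD68, CD14, ITGAM and PTPRC were called higher (1.02 ± 0.05, 3.66 ± 0.40, 2.68 ± 0.51 and 1.54 ± 0.49), and in WT cGAS CD68 and ITGAM (1.99 ± 0.05 and 3.11 ± 0.48) and also CD14. Fibroblast and endothelial markers summed to 30.5 and 29 FPKM in p53 KO, 43.1 and 34.3 FPKM in WT cGAS and 64.2 and 63 FPKM in WT. The part of these markers in the results was not tested.

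Cells labelled WT cGAS shared their WT control with the p53 KO cells, and the arms broke up by role. In the ATF4 arm 8 genes rose and 11 fell and in the ER arm 3 rose and 9 fell, where 29.8% of all genes rose and 30% fell. On the deposited FPKM values, which moved the median of all genes by 0.21, the ER arm had 5 higher and 2 lower and both arms together 13 higher and 9 lower. Among all 16806 genes so tested, 4527 were higher and 2014 lower. DDIT3 had 182 and 182 CPM in WT cGAS and 52.2 and 52.9 in WT (1.79 ± 0.06, adjusted p = 4.26e-14), CEBPB 180.5 and 194 CPM in WT cGAS and 75.1 and 74.2 in WT (1.33 ± 0.05), and PPP1R15A 385 and 369 CPM in WT cGAS and 161 and 157 in WT (1.25 ± 0.05). TRIB3 had 70.5 and 65.8 CPM in WT cGAS and 45.1 and 43.5 in WT (0.62 ± 0.07) and ATF4 422 and 412 CPM in WT cGAS and 340.5 and 325 in WT (0.33 ± 0.04). The groups did not overlap in these 5 genes. NUPR1 fell to 61 and 56.8 CPM in WT cGAS, against 127 and 125 in WT (-1.09 ± 0.05). CHAC1, a target of the same branch, did not pass, with 15.1 and 13.6 CPM in WT cGAS and 14.1 and 12.8 in WT (0.11 ± 0.11).

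The enzymes went the other way in WT cGAS cells, with 5 of 6 lower. PSAT1 had 48.3 and 49 CPM in WT cGAS and 109 and 109.5 in WT (-1.17 ± 0.05, adjusted p = 8.85e-13), and PHGDH 45.3 and 36.2 CPM in WT cGAS and 67.7 and 71.8 in WT (-0.78 ± 0.09). ASNS fell to 39.9 and 34.3 CPM in WT cGAS, against 46.6 and 46.4 in WT (-0.32 ± 0.07), but its sign was the opposite on FPKM values, as was that of MTHFD2. The leucine transporter SLC7A5 fell by 0.86. In the ER arm, ERN1 had 36.6 and 43.3 CPM in WT cGAS and 18.2 and 19 in WT (1.10 ± 0.09), XBP1 162 and 165 CPM in WT cGAS and 97.3 and 103 in WT (0.71 ± 0.05), and DNAJB9 54 and 67 CPM in WT cGAS and 45.8 and 43.2 in WT (0.44 ± 0.09). All 3 rose, while HERPUD1 fell to 78.4 and 78 CPM in WT cGAS, against 141 and 140.4 in WT (-0.85 ± 0.05), and EDEM1 and PDIA6 by 0.52 and 0.42. ATF6 was lower by counts (-0.37) and had the opposite sign on FPKM values. HSPA5 did not pass, at 1028 and 1071 CPM in WT cGAS and 982 and 1096 in WT (0.01). In WT cGAS 3 of the 12 ATF4-linked synthetases rose and 7 fell, and of the 8 others 1 rose and 6 fell. Of 17 other ATF4 and stress response genes 8 rose and 6 fell in WT cGAS, where 29.8% of all genes rose and 30% fell, with ATF3 at 114 and 119 CPM, against 24.4 and 26.3 in WT (2.19 ± 0.08). Because the WT libraries are shared, these values stand beside those of p53 KO without a test between them.

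**Figure D5:**
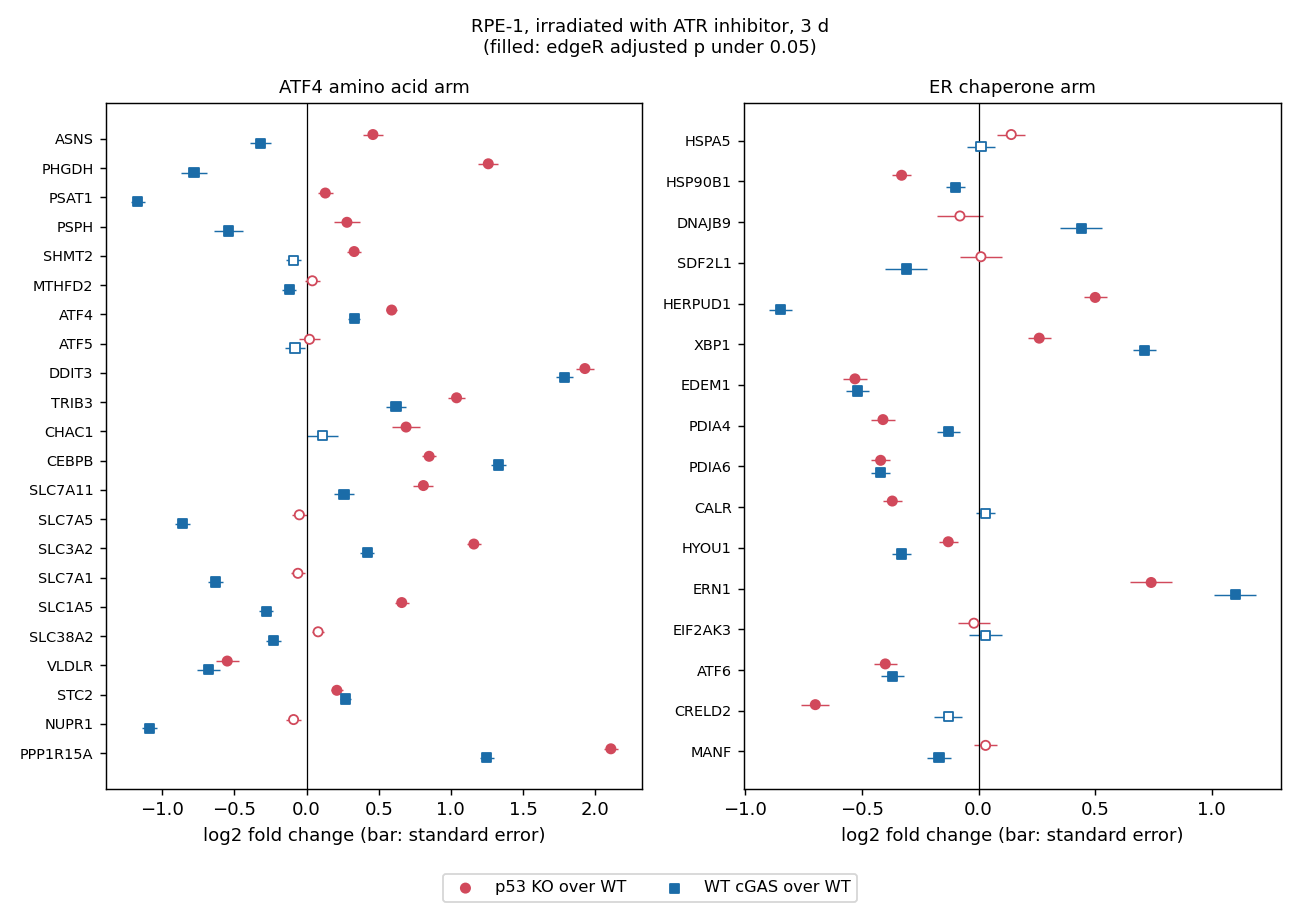
Log2 fold change over WT RPE-1 cells (horizontal axes, bars are standard errors) of each gene in p53 KO (red circles) and WT cGAS (blue squares) cells, which share the WT libraries; filled symbols have an edgeR adjusted p under 0.05. PSAT1 lies at 0.13 in p53 KO and -1.17 in WT cGAS, and DDIT3 at 1.93 in p53 KO and 1.79 in WT cGAS.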

How the data were processed

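RNA was sequenced from 32 libraries in 16 groups of 2. The deposited tables hold, for every gene, estimated counts and FPKM values that the authors made. Per the submitters' processing notes, STAR, Cuffnorm, bcl2fastq, FastQC and DESeq2 were used with build hg19; neither their settings nor an annotation version could be read from those notes. Of the estimated counts, 96% to 97.3% of the values in a library were whole numbers, and they were rounded before testing. Total counts per library ranged from 5590061 to 18585999, and 2 libraries a group limit the precision of every comparison.

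Each of the 3 experiments was fitted apart, with all its groups sharing one estimate of the spread, in edgeR 4.0.16 (R 4.3.3) with its own filter on low counts, TMM scaling and robust quasi-likelihood F tests. All tests were two-sided, with p-values adjusted by Benjamini-Hochberg over the genes of that experiment, and calls were made at an adjusted p under 0.05. Statements that the libraries of compared groups do not overlap describe the values and add no support to a call. The share of all genes without such overlap is not given. CPM values are TMM-scaled, and log2 CPM used a prior count of 2. The deposited FPKM values were tested with limma 3.58.1 on log2(FPKM + 0.1), for genes with at least 0.5 FPKM in 2 libraries, so fold changes of low genes are understated on that scale. DESeq2 1.42.0, relative log expression scaling, no filter, a replicate block, fits of only the compared groups, and leaving out each library were alternatives. The test was checked on simulated counts with known changes.

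The 38 genes and all gene lists were chosen with earlier results of these data known. Named genes are ATF4, DDIT3, ASNS, CHAC1, TRIB3, PHGDH, HSPA5, DNAJB9 and XBP1 and, per comparison, the called genes with the largest log2 fold changes, up to 4 per arm and direction. Others were named after their values were seen. One gene of the blood cell marker list is not reported here. No source used here states whether counting used strand, and gene intervals in the count table can span several genes. Reads of DDIT3 and MARS, and of CEBPB, SLC7A11 and VLDLR and their antisense partners, therefore cannot be told apart where they overlap.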

Additional observations from a re-analysis of the deposited data

Results flagged for a closer look

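In 24 of the 38 genes the response to the ATR inhibitor differed between DKO and XRCC4 KO cells by the test of the difference itself (an interaction term in edgeR, adjusted p under 0.05 over all genes tested, 2 libraries a group). By the same test 13% of all genes had a positive and 21% a negative difference. Values are the log2 effect of ATRi in DKO cells minus that in XRCC4 KO cells. In the ATF4 arm the difference was 1.64 for CHAC1, 1.51 for PPP1R15A, 1.41 for DDIT3, 1.29 for ASNS and 0.78 for NUPR1. It was 0.53 for ATF4, 0.53 for STC2, 0.52 for SLC3A2, 0.23 for PSAT1, 0.21 for TRIB3 and 0.15 for SLC38A2. It was negative for PSPH (-0.34), ATF5 (-0.29) and SHMT2 (-0.19). In the ER arm it was 1.53 for HERPUD1, 1.34 for EIF2AK3, 0.83 for XBP1, 0.81 for DNAJB9, 0.46 for HSPA5, 0.38 for ERN1, 0.27 for HYOU1 and 0.23 for CALR. It was negative for EDEM1 (-0.25) and HSP90B1 (-0.14). Of these, 15 passed under every alternative, among them CHAC1, PPP1R15A, DDIT3, ASNS, HERPUD1, EIF2AK3 and XBP1. No cause of the difference was tested.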

How the results depend on the processing

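Counts of called genes follow, out of 38. For WT at 3 days against untreated (1 call), the replicate block, no filter, FPKM values and a fit of only these groups each gave 0, DESeq2 gave 2, and leaving out 1 library gave 0 to 3. For WT at 5 days against untreated (14 calls), no filter gave 6, FPKM values 8 and leaving out 1 library 4 to 13. For 5 against 3 days (0 calls), DESeq2 gave 1 and leaving out 1 library 0 to 0. For CDK1i against DMSO (3 calls), FPKM values and only these groups gave 0 each and leaving out 1 library 0 to 3. For CDK1i against untreated (19 calls), only these groups gave 0 and leaving out 1 library 7 to 17. For cGAS KO (4 calls), FPKM values gave 2, only these groups 19 and leaving out 1 library 0 to 2. For STING KO (2 calls), the replicate block gave 4, no filter 1, DESeq2 4, only these groups 1 and leaving out 1 library 0 to 8. For XRCC4 KO at 5 days (8 calls), DESeq2 gave 13, only these groups 27 and leaving out 1 library 2 to 6. For ATRi in XRCC4 KO (12 calls), FPKM values gave 7 and leaving out 1 library 8 to 12. Leaving out 1 library gave 23 to 26 for p53 KO, 30 to 31 for XRCC4 KO at 3 days, 26 to 27 for DKO against XRCC4 KO, 31 to 35 for DKO against p53 KO, 29 to 31 for ATRi in DKO, 18 to 26 for the difference of the ATRi effects, 25 to 27 for RPE-1 p53 KO and 26 to 29 for WT cGAS. A lone library was then assumed to vary like the other groups.

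The sign turned on FPKM values for 11 named changes: SLC38A2 in p53 KO (0.10), ATF4 (0.10), EDEM1 (0.18) and CALR (0.04) in DKO against XRCC4 KO, MTHFD2 (0.03), ATF5 (0.09), ATF6 (0.33) and PDIA4 (0.09) with ATRi in DKO, EDEM1 (0.05) in the difference of the ATRi effects, and ASNS (0.11) and ATF6 (0.29) in WT cGAS. FPKM scaling moved the median of all genes by -0.27 to 0.35. Of 294 called values 24 turned sign on FPKM values, and 4 after subtracting that median. Of 2077 alternative values of named genes 1836 kept direction and side of the threshold, 230 missed the threshold and 11 reversed.

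No label ties same-numbered libraries together. Their deviations correlated at 0.25 to 0.44 in all 5 comparisons among the 4 WT groups of the first experiment, so those libraries deviated together, at -0.15 for STING KO against WT, and at -0.05 to 0.03 elsewhere; with only 2 numbers this does not establish pairing. The block ended 7 calls of named genes: ATF5 at 3 days (adjusted p = 0.0504), ASNS, PHGDH and SLC7A11 at 5 days (0.0719, 0.0521 and 0.0542), ASNS and PHGDH with CDK1i against untreated cells (0.0732 and 0.0615) and PHGDH in XRCC4 KO at 5 days (0.0636). With the replicate block 12 genes were called at 5 days, 33 in XRCC4 KO at 3 days, 32 for ATRi in DKO and 28 in RPE-1 p53 KO. The earlier edgeR quasi-likelihood method was added after seeing the data. The cause of these changes was not tested. Depth limits VLDLR and PHGDH in XRCC4 KO, with a handful of counts, and the spread between libraries limits the first experiment.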
